A study of Mus musculus with 4 samples.

Results

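The genes En1, Wnt7a and Lmx1b set the dorsoventral axis of the limb, and their surroundings were examined in ATAC-seq lists from mouse limb buds. The members were these 3 genes of 22367 annotated protein-coding genes, chosen by name and not by a measured value. However, these genes and the gene lists used below were chosen with earlier results of these data known. ATAC-seq marks open chromatin, because the transposase Tn5 cuts and tags accessible DNA. The data are 4 lists of peak summits, positions of 1 bp, from pooled forelimb and hindlimb cells of embryos at E11.5. In 2 libraries the embryos carried a stop cassette insertion, a sequence that ends transcription early, and 2 libraries were wild type. All were of a c57bl6.J X 129S6.sv background and were fixed before transposition. The labels give neither the position and zygosity of the insertion nor the number of embryos per library. The peak names inside the wild-type lists carry a single replicate number with sub-numbers, whereas those of the stop cassette lists carry separate numbers, so the spread between the wild-type libraries may be technical.

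As background, the ectoderm tells the limb bud which side is dorsal. Bone morphogenetic protein signals in the ventral ectoderm switch on En1, which encodes a homeodomain repressor and keeps Wnt7a off there. Wnt7a, a secreted Wnt ligand, is made in the dorsal ectoderm and switches on Lmx1b, a LIM-homeodomain factor, in the mesenchyme beneath. Loss of En1 gives double-dorsal limbs, and loss of Wnt7a or Lmx1b gives ventralised ones. The study's title names Maenli, a long non-coding RNA, and limb malformations that depend on En1.

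The lists held 79083 and 107827 summits in stop cassette replicates 1 and 2, and 51701 and 68471 in wild-type replicates 1 and 2. Each summit has a peak score that reads as −log10 of a q-value. Scores were turned into percentiles within their own list, from the weakest summit near 0 to the strongest at 100, because the number of reads behind each list is unknown. Among markers of limb mesenchyme fixed as a list, 6 of 8 had a summit within 1 kb of an annotated start in all 4 lists, Tbx4 had one in 3 lists and Tbx5 in none. Of all protein-coding genes, 57.5% had such a summit in all 4 lists. Of 9 markers of surface ectoderm and apical ridge, 3 had one in all lists (Epcam, Krt18 and Cdh1). Another 4 had one in some lists (Krt8, Trp63, Fgf8 and Sp8), and the keratin genes Krt5 and Krt14 had none. None of the 4 liver genes had a start summit in any list. All 3 annotated neural markers had one in some but not all lists. Neurod1 was at 72.1 in stop cassette replicate 2 and at 54.7 and 67.0 in wild type, and Neurog1 at 16.9 against 0.431 and 28.0. Rbfox3 had one in stop cassette replicate 2 alone, at 39.9. Of 4 endothelial genes, Kdr had start summits in all lists, at 82.2 and 90.3 with the stop cassette and 70.2 and 81.7 in wild type, Tek had one in stop cassette replicate 2 alone, and Cdh5 and Pecam1 had none. Percentiles summed over 4 genes of muscle precursors were 54.7 and 182 with the stop cassette against 42.7 and 60.9, with none of the 4 genes in all lists. Pax3 and Lbx1 had start summits with the stop cassette in both replicates and in no wild-type list, Myf5 in stop cassette replicate 2 alone, and Myod1 in every list but stop cassette replicate 1. Percentiles summed over 4 blood markers were 159 and 124 in the stop cassette lists and 33.3 and 26.0 in the wild-type lists. Ptprc and Hba-a1 were at 0 in all lists, and Gata1 and Klf1 were higher in both stop cassette lists than in both wild-type lists. Over all protein-coding genes, 26.0% had start percentiles higher with the stop cassette without overlap, and 2.62% higher in wild type. Whether these markers have a part in the differences between genotypes described here was not tested. In whole limb tissue, fewer cells of a type and less open chromatin per cell cannot be told apart.

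The sequences that carry the results are the windows around the strongest summit at each member's start and, away from gene starts, the region with the highest mean percentile between En1 and Insig2 and the one near Lmx1b, each held by all 4 lists. Each was read from the NCBIM37 (mm9) genome, is written 5′ to 3′ on the strand of the gene, and has every CpG (cg) in capitals, because the CpG content of the starts is taken up below. The En1 start window stops at the base before the annotated start and is chr1:122498719-122498994 on the plus strand.
En1 start: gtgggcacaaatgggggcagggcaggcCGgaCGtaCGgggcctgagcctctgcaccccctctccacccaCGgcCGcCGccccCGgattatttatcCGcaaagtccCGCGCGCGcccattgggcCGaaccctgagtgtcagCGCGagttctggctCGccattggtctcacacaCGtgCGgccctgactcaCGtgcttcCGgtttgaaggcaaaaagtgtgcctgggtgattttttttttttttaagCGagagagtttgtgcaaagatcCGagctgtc
The strongest region between En1 and Insig2 is chr1:122637893-122638192, plus strand, in intergenic sequence.
En1 desert region: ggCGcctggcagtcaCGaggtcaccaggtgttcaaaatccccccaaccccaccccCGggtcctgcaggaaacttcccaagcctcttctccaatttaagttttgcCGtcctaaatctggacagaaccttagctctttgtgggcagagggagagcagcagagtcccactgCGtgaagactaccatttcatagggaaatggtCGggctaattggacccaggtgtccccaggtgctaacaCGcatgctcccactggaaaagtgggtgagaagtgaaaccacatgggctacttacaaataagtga
The Wnt7a start window is chr6:91361730-91362029, minus strand, upstream of the gene.
Wnt7a start: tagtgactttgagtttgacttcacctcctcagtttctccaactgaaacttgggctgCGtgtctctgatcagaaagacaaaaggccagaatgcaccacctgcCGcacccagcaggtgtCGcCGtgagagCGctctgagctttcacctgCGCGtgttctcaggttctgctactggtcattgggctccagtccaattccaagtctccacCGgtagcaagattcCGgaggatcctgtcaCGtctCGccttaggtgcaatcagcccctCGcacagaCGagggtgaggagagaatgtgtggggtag
The Lmx1b start window is chr2:33496446-33496745, minus strand, and reaches into the first exon of the divergent lincRNA C130021I20Rik.
Lmx1b start: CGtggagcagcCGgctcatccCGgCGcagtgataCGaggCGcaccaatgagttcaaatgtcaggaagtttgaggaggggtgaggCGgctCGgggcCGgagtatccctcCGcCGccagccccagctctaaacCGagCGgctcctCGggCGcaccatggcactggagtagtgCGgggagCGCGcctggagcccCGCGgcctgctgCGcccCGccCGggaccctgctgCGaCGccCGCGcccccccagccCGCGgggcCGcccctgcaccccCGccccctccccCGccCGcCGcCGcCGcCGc
The region upstream of Lmx1b is chr2:33556382-33556681, minus strand, in intergenic sequence.
Lmx1b upstream region: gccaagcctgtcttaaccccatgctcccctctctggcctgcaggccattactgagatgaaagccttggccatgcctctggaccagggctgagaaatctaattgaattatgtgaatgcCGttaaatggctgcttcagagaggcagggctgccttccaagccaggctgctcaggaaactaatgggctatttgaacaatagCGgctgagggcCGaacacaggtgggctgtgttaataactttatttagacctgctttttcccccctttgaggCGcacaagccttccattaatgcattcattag
The first window holds 22 CpGs, the second 7, the third 13, the fourth 37 and the fifth 4, against a median of 5 in the window of 300 bases at the strongest summit of all 74585 regions on assembled chromosomes.

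Summits at the starts of the 3 genes were weak and irregularly called in these lists. A summit within 1 kb of an annotated start was called for En1 in 1 of 4 lists, for Wnt7a in 2 and for Lmx1b in 2. Over all protein-coding genes, 57.5% had a start summit in all 4 lists, 34.5% in none and 7.99% in some, so all 3 members fell in the smallest of these groups. A start summit in exactly 1 list was found for 2.48% of genes, and in 2 lists for 2.37%.

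En1 (ENSMUSG00000058665.7, chr1:122498995-122505873, plus strand) has 1 annotated start. Its strongest start summit stood at the 52.7 percentile of stop cassette replicate 2, with a peak score of 6.34, and lay 127 bp upstream of the start. The other 3 lists had no summit within 1 kb. Stop cassette replicate 2 had further start summits in the UTR, at 1.65, and in the coding exon, at 44.2. Wild-type replicate 2 had a summit in the coding exon just outside the window, at the 16.6 percentile. A summit in the start window was therefore called in only 1 of the 2 stop cassette lists, which is also the longest list. A missing call does not show closed chromatin, because the depth of the lists is unknown. The strongest start percentile averaged 26.4 ± 37.3 over the stop cassette libraries, against 0 for the others (SD, n = 2 each; two-sided exact permutation p = 1), and without stop cassette replicate 2 the difference was 0.

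Wnt7a (ENSMUSG00000030093.6, chr6:91313975-91361357, minus strand) has 3 annotated starts, and no list had a summit at the pair near its 3′ end. At the 5′ start, stop cassette replicate 1 had a summit at the 1.71 percentile, 163 bp upstream, and stop cassette replicate 2 had another at 54.5, 522 bp upstream. Neither wild-type list had any, a pattern shared by 1.03% of all protein-coding genes. The stop cassette values differed from each other far more than the weaker of them differed from 0. The group means were 28.1 ± 37.3 and 0 (SD, n = 2 each; exact permutation p = 0.333, the smallest that 2 against 2 libraries allow). Over all protein-coding genes, 26.0% had start percentiles that did not overlap with the stop cassette higher, and 2.62% with wild type higher. When the lists were reduced to the 51701 strongest summits each, only stop cassette replicate 2 still had a Wnt7a start summit, at the 5.08 percentile, and with a start window of 500 bp the difference in means was 0.855.

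Lmx1b (ENSMUSG00000038765.5, chr2:33416485-33496031, minus strand) has 2 annotated starts, and the internal one had no summit in any list. Near the 5′ start, stop cassette replicate 1 had a summit at the 2.90 percentile and wild-type replicate 2 had one at 33.4, 562 and 564 bp upstream. Stop cassette replicate 2 and wild-type replicate 1 had none, so the genotypes overlapped. These summits lay closer to the start of C130021I20Rik, which begins 682 bp upstream of Lmx1b on the opposite strand, and cannot be assigned to either gene. The means were 16.7 ± 23.6 for wild type and 1.45 ± 2.05 for the stop cassette (SD, n = 2 each; exact permutation p = 1), and the difference changed sign, to 1.45, without wild-type replicate 2.

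Start calls were set beside CpG content, a comparison chosen after the calls had been seen. Within 500 bp of the 5′ start, Wnt7a had 95 CpGs and Lmx1b 104, at the 90.9 and 94.1 percentiles of all protein-coding genes. Of the 5586 genes with 70 to 180 CpGs, to which both belong, 94.0% had a start summit in all 4 lists and 1.15% had none. En1 had 50 CpGs, at the 57.4 percentile. Of the 5433 genes with 42 to 69 CpGs, 90% had a start summit in all 4 lists and 3.37% in none. The median gene had 41. The related genes En2, with 113 CpGs, and Wnt7b, with 93, also belong to the class with the most, and En2 had a start summit in 3 lists and Wnt7b in none. Fzd4, with 83, and Lhx2, with 86, had start summits in all 4. Among genes with fewer CpGs, Wls, which carries Wnt ligands to the cell surface, had 31 and start summits in all 4 lists, and Bmp4 had 35 and start summits in 2. Across all genes, start summits in all 4 lists became more common with CpG content: the share was 6.65% for genes with 0 to 12 CpGs and 40.9% for those with 13 to 41.

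Most genes of the pathways in which the members act had start summits in every list. Of 22 genes for Wnt secretion, reception and output, 21, or 95.5%, had a start summit in all 4 lists, beside 57.5% of all protein-coding genes. In the classes with 42 to 69 and 70 to 180 CpGs that share was 90% and 94.0%. The pathway lists were not matched for CpG content. Fzd4, a Wnt receptor, was at the 93.2 and 96.1 percentiles in the stop cassette lists and at 97.1 and 96.2 in the wild-type lists. Dvl3, a cytoplasmic transducer of Wnt signals, was at 97.8 and 97.3 against 90.3 and 90.2. Both starts ranked high in every library, and the genotypes differed by a few percentile points. The lowest of the list were Lrp5, a Wnt co-receptor, with no summit in either replicate 1 list, 55.6 in stop cassette replicate 2 and 2.79 in wild-type replicate 2, and Dvl2, with 66.7 and 67.6 against 8.03 and 41.7. In 8 of the 22 genes both stop cassette percentiles lay above both wild-type ones, and in 1 both lay below, beside 26.0% and 2.62% over all genes.

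Genes of bone morphogenetic protein signalling, which acts upstream of En1, also mostly had start summits in every list. A start summit was present in all 4 lists for 10 of 12, or 83.3%, beside 57.5% of all protein-coding genes. The receptor gene Bmpr1a was at 87.8 and 96.2 with the stop cassette and at 88.7 and 84.0 in wild type. Smad4, the shared signal transducer, was at 86.6 and 93.8 against 88.2 and 87.0. The ligand gene Bmp4 was the lowest, with 2.09 in stop cassette replicate 2, 15.3 in wild-type replicate 2 and no summit in the replicate 1 lists. The next lowest was Bmpr2, a type II receptor, with 64.2 and 76.6 against 50.8 and 14.5. In 2 of the 12 genes the stop cassette values lay above the wild-type ones without overlap, and in 0 below, again beside 26.0% and 2.62% over all genes.

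Among LIM-homeodomain factors and their cofactors, 5 of 6 had a start summit in all 4 lists, again beside 57.5% of all protein-coding genes. Isl1, a LIM-homeodomain factor of early limb mesenchyme, was at 83.9 and 86.0 with the stop cassette and at 79.7 and 80.1 in wild type. Ldb1, the cofactor that LIM-homeodomain proteins bind, was at 84.9 and 91.3 against 65.2 and 84.1. Lhx9 was the reverse case, at 47.7 and 50.2 against 63.8 and 69.4. Lmx1a, the closest relative of Lmx1b, had 2.60 and 50.8 in the stop cassette lists and 24.9 in wild-type replicate 2, with no summit in wild-type replicate 1. The relatives of the members ranked low as well: En2 was at 31.5 in stop cassette replicate 2 and at 7 and 40.1 in wild type. The medians of the genes' mean percentiles were 82.4 for the Wnt list, 72.4 for the bone morphogenetic protein list and 76.1 for the LIM list, against 67.6 over all protein-coding genes. These sets are unlike, because 34.5% of all protein-coding genes had a start summit in no list and no gene of these pathway lists did.

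**Figure D1:**
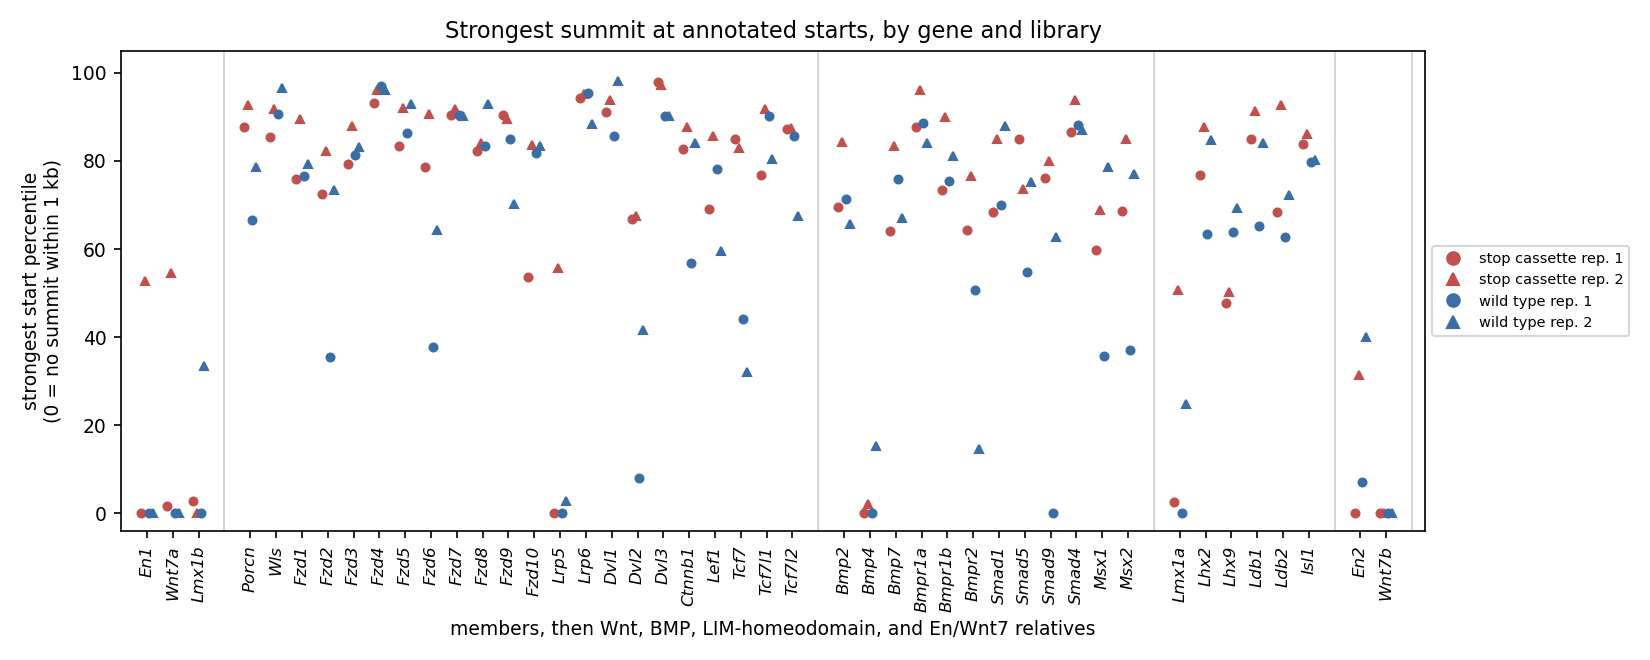
Percentile of the strongest summit within 1 kb of an annotated start (vertical axis, 0 where there is none) for the 3 members and the pathway genes, with 1 point per library, circles for replicate 1 and triangles for replicate 2, red for stop cassette and blue for wild type. The members sit at or near 0 apart from 52.7 for En1 and 54.5 for Wnt7a in stop cassette replicate 2 and 33.4 for Lmx1b in wild-type replicate 2, while most Wnt, bone morphogenetic protein and LIM genes lie well above them.

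Start patterns like those of the members were found in genes unrelated by name. Likeness was the Euclidean distance between strongest start percentiles over the 4 lists. Closest to En1 were Angpt4, Chad and Spint1 (distances of 0.0232 to 0.809). Of 22367 protein-coding genes, 369 others had a start summit in stop cassette replicate 2 alone. Closest to Wnt7a were Vtn, Col4a6 and Aipl1 (1.31 to 1.71), and to Lmx1b Epha8, Xdh and Enpep (2.90 to 4.58). The Wnt7a pattern of a summit in both stop cassette lists alone was shared by 230 other genes. The Lmx1b pattern of a summit in stop cassette replicate 1 and wild-type replicate 2 alone was shared by 18. A gene at a small distance need not share the pattern, and Aipl1, Epha8 and Enpep had no start summit in stop cassette replicate 1.

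Most of the summits near the members lay away from their starts. Within 100 kb of the gene body, a span of 206.9 kb, En1 had 6 and 15 summits in the stop cassette lists and 4 and 8 in the wild-type lists. The ranges overlapped, and the means were 10.5 ± 6.36 and 6 ± 2.83 (SD, n = 2 each; exact permutation p = 0.667). Wnt7a, with 247.4 kb, had 13 and 17 summits against 8 and 8. Here both stop cassette lists were higher, with means of 15 ± 2.83 and 8 ± 0 (SD, n = 2 each; exact permutation p = 0.333). Lmx1b, with 279.5 kb, had 19 and 30 summits against 12 and 18. Again both stop cassette lists were higher, by 1 summit at the nearest pair, with means of 24.5 ± 7.78 and 15 ± 4.24 (SD, n = 2 each; exact permutation p = 0.333).

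The same direction without overlap held for 56.4% of all protein-coding genes as deposited, and the opposite for 0.563%. After all lists were reduced to the 51701 strongest summits, no difference of this kind was left at the 3 genes. Wild-type replicate 1 has just this length, so it kept its weakest summits while the other lists lost theirs. En1 then had 4 and 3 summits with the stop cassette and 4 and 5 in wild type. Wnt7a had 7 and 8 against 8 and 8, and Lmx1b 4 and 13 against 12 and 8. The differences in means became -1, -0.5 and -1.5 (exact permutation p = 0.667, 1 and 1), each within the spread of the libraries. In the reduced lists, 14.2% of genes had counts without overlap and higher with the stop cassette, and 10.4% higher in wild type.

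**Figure D2:**
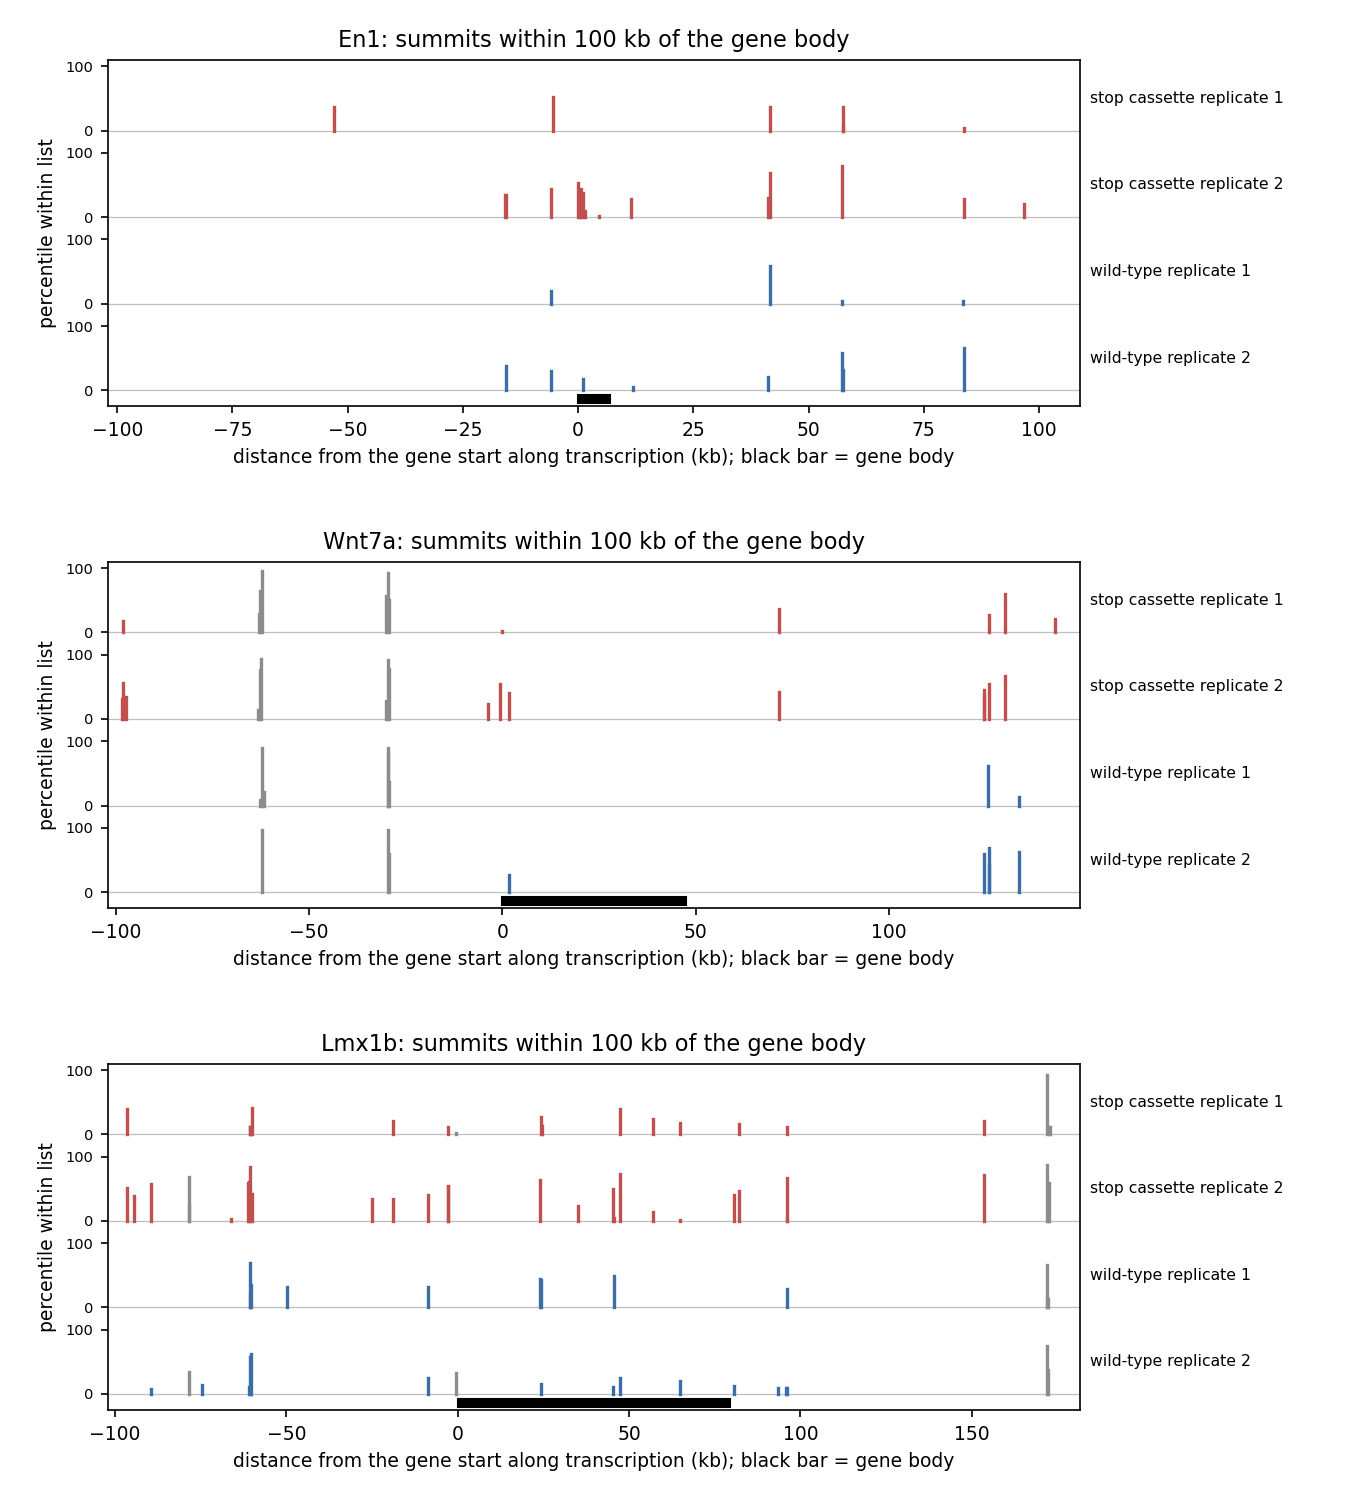
Summits within 100 kb of En1, Wnt7a and Lmx1b, by distance from the 5′ start in the direction of transcription (horizontal axis, kb) and percentile within the list (height of each line), with 1 row per library, grey where a summit lies within 1 kb of another gene's start and a black bar for the gene body. The tallest lines near Wnt7a are grey in all 4 rows, and the starts at 0 carry short lines or none except in stop cassette replicate 2 for En1 and Wnt7a and wild-type replicate 2 for Lmx1b.

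As deposited, Lmx1b had the most summits of the 3 in every library. In stop cassette replicates 1 and 2 and wild-type replicates 1 and 2 it had 13, 15, 8 and 10 summits more than En1, and 6, 13, 4 and 10 more than Wnt7a. The excess was positive in 4 of 4 libraries for both, with SDs of 3.11 and 4.03 (n = 4; exact sign-flip permutation p = 0.125, the smallest possible, and 0.188 after Benjamini-Hochberg adjustment over 3 pairs). Per 100 kb the excess was 3.08 ± 0.731 over En1 and 2.42 ± 1.33 over Wnt7a (SD, n = 4). Wnt7a exceeded En1 by 3.25 ± 2.99 summits, in 3 of 4 libraries (exact sign-flip permutation p = 0.25, adjusted 0.25). Without summits at the starts of other genes, Wnt7a instead had fewer than En1 (mean difference -2, SD 2.16, n = 4; exact sign-flip permutation p = 0.25). At equal list length the mean excess of Lmx1b was 5.25 over En1, in 3 of 4 libraries (exact sign-flip permutation p = 0.25), and 1.5 over Wnt7a, in 2 of 4 (exact sign-flip permutation p = 0.5). Above the pooled median score of 5.83, Lmx1b no longer exceeded Wnt7a (difference -0.75, exact sign-flip permutation p = 0.875).

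These densities lay in the middle range of all protein-coding genes. Lmx1b had 6.80 and 10.7 summits per 100 kb in the stop cassette lists and 4.29 and 6.44 in the wild-type lists, which ranked at the 58.5 to 75.9 percentiles of genes. Wnt7a had 5.26, 6.87, 3.23 and 3.23 in the same order, between the 36.1 and 50.8 percentiles. En1 had 2.90, 7.25, 1.93 and 3.87, between the 29.2 and 53.6 percentiles.

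**Figure D3:**
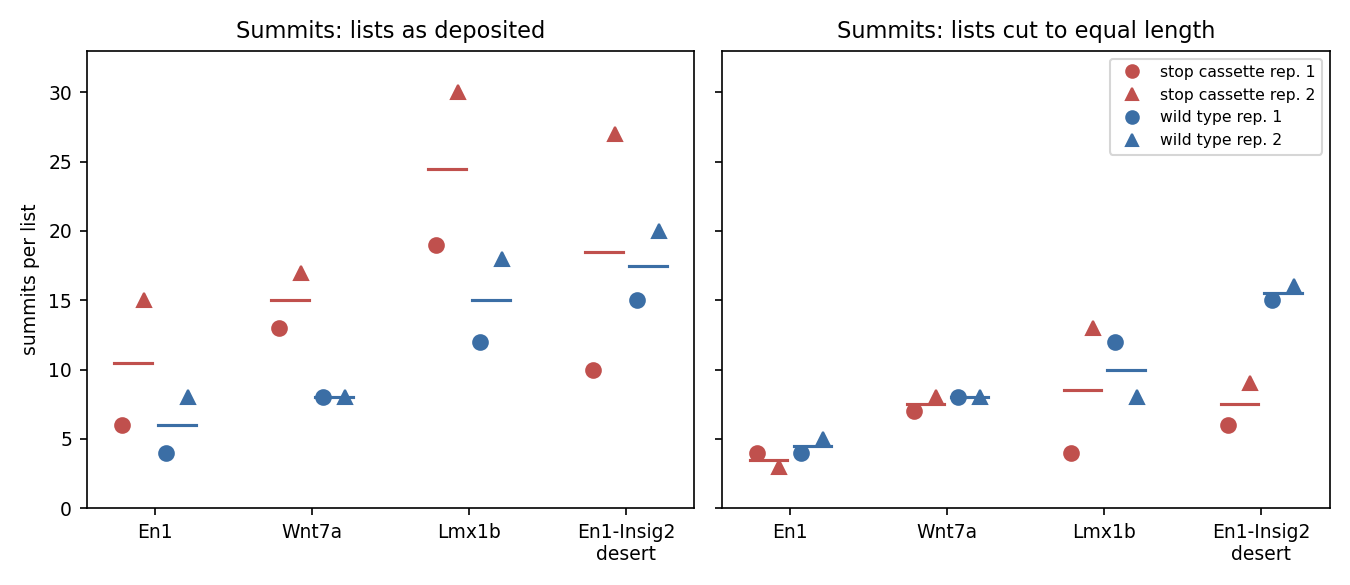
Number of summits per list (vertical axis) within 100 kb of each member and between En1 and Insig2, for the lists as deposited (left) and reduced to 51701 summits each (right), with 1 point per library and a bar at each genotype mean. On the left the stop cassette points of Wnt7a and Lmx1b lie above the wild-type ones, and on the right they overlap or meet, while between En1 and Insig2 the wild-type points, 15 and 16, lie above the stop cassette points, 6 and 9.

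To follow single elements, summits of all lists were extended by 250 bp on each side and merged into regions. The 11 regions around En1 included 4 that all lists held, or 36.4%, beside 32% of all 74669 merged regions. Lying 5.47 kb upstream of the start, chr1:122492924-122493773 was at the 52.0 and 43.7 percentiles with the stop cassette and at 19.2 and 29.3 in wild type. Downstream, chr1:122539857-122540854 (41.6 kb) was at 36.8 and 68.6 against 58.1 and 20.7, and chr1:122555906-122556738 (57.3 kb) at 36.8 and 79.8 against 4.54 and 57.4. All 3 were intergenic. In the first, the summit of stop cassette replicate 1 lay at chr1:122493523 and those of the other lists between 122493174 and 122493176. Its percentiles thus belong to different summits, and it was held by 3 lists at equal length and 1 above the pooled median score. The other named regions near En1 overlapped between genotypes. For this and the regions below, the share of all merged regions with percentiles that did not overlap is not given here. No region near En1 was specific to a genotype, meaning held by both lists of one genotype and neither of the other. Genome-wide, 10% of regions were specific to the stop cassette and 0.313% to wild type. With only 11 regions, a count of 0 cannot be told apart from these shares. Another 3 regions were held by both replicate 2 lists alone and 3 by stop cassette replicate 2 alone, beside 6.57% and 22.1% of all regions.

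Wnt7a had 12 regions, of which all lists held 3. The strongest of them were starts of other genes. The region chr6:91422867-91424778, at the shared start of Chchd4 and Tmem43, was at 95.9 and 94.3 with the stop cassette and at 89.5 and 96.2 in wild type. The region chr6:91390392-91391708, at the start of the lincRNA 4930471M09Rik and 29.5 kb upstream of Wnt7a, was at 92.8 and 92.7 against 89.7 and 96.8. Both were strong in every library, in contrast to the Wnt7a start itself. The remaining one, chr6:91235290-91235903, was intergenic and nearer to Fbln2, at 27.3 and 54.1 against 61.6 and 68.0. Nearby chr6:91236464-91237117 was held by both replicate 2 lists alone, at 44.9 and 59.7.

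Around Wnt7a 4 regions, or 33.3%, were specific to the stop cassette and 1 to wild type, beside 10.3% of all regions specific to either genotype. The Wnt7a start was among the former. The strongest, chr6:91231106-91231606, was intergenic at 60.7 and 67.8, and the wild-type-specific chr6:91227440-91227960 on its Fbln2 side was at 13.0 and 62.8. Both kept their pattern at equal list length. The other stop cassette-specific regions were chr6:91289540-91290062, 71.6 kb downstream of the Wnt7a start, at 36.8 and 42.1, and chr6:91458387-91460012 in an intron of Xpc, at 18.3 and 55.4. These and the Wnt7a start were held by 1 list at equal length.

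Lmx1b had 25 regions, of which 4, or 16.0%, were held by all lists, beside 32.0% of all merged regions. Limb enhancers bound by Lmx1b itself have been described upstream of this gene. The strongest region away from other starts, chr2:33555843-33557390, lay 60.5 kb upstream and was at 41.4 and 84.3 with the stop cassette and at 69.5 and 61.8 in wild type. It had the second-highest mean percentile of the 25, after the start of Zbtb43 (93.0 and 86.8 against 65.8 and 74.4), and was still held by all 4 lists at equal length. Whether it is a described enhancer was not tested. Inside the gene, the intronic region chr2:33471237-33472294 (24.0 kb downstream of the start) was at 27.3 and 64.4 against 44.2 and 16.3. The intronic region chr2:33448409-33448953 (47.4 kb) was at 38.9 and 72.5 with the stop cassette and at 25.1 in wild-type replicate 2, with no summit in wild-type replicate 1.

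Of the Lmx1b regions, 6, or 24.0%, were specific to the stop cassette and 0 to wild type, beside 10% and 0.313% of all regions as deposited. They ranked between 11.7 and 38.9 in stop cassette replicate 1 and between 13.6 and 71.1 in replicate 2. The highest mean belonged to chr2:33342356-33342863, intergenic and 153 kb from the Lmx1b start on the Zbtb43 side. Next came chr2:33592186-33592693 in an intron of Fam125b, followed by chr2:33498504-33499100 in an exon of C130021I20Rik, chr2:33413657-33414186 just beyond the 3′ end of Lmx1b and chr2:33514650-33515237 upstream. None of the 6 was specific to the stop cassette at equal list length, when the only specific region near Lmx1b, the upstream chr2:33504288-33504865, belonged to wild type. Genome-wide, 5.21% of regions were then specific to the stop cassette and 2.24% to wild type, or 7.45% to either. Above the pooled median score, where 13.4% of all regions were specific to either genotype, En1 had 0 such regions, Wnt7a 1 and Lmx1b 0.

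Between En1 and Insig2, which encodes a regulator of sterol synthesis, lie 695.1 kb with no other protein-coding gene (chr1:122505874-123200929) and with the lincRNA B230209K01Rik. The part next to En1 is also within 100 kb of the gene, so 3 to 6 summits per list were counted there as well. Stop cassette replicate 1 had 10 summits, stop cassette replicate 2 had 27, wild-type replicate 1 had 15 and wild-type replicate 2 had 20. Both wild-type counts lay between the stop cassette counts. The means were 18.5 ± 12 and 17.5 ± 3.54 (SD, n = 2 each; exact permutation p = 1). The wild-type counts were 0.0290% and 0.0292% of their lists, and the stop cassette counts 0.0126% (95% Wilson interval 0.00687% to 0.0233%) and 0.0250% (0.0172% to 0.0364%). These intervals cover counting error only.

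At equal list length the desert changed order. Stop cassette replicates then had 6 and 9 summits and wild-type replicates 15 and 16, a difference of -8 with no overlap (exact permutation p = 0.333). The 15 of wild-type replicate 1 is its count as deposited, because only the other lists were cut. Among 382 gaps of 500 to 1000 kb between neighbouring protein-coding genes, 15.4% had counts without overlap and higher in wild type in the reduced lists, and 6.54% higher with the stop cassette, against 0.262% and 24.3% as deposited. The difference was also negative as deposited without stop cassette replicate 2 (-7.5, exact permutation p = 0.667) or without wild-type replicate 1 (-1.5, exact permutation p = 1). Above the pooled median score it was 0.5, with 4 and 10 against 4 and 9 summits.

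Among those gaps the desert was rich in summits. As deposited it had 1.44 and 3.88 summits per 100 kb with the stop cassette and 2.16 and 2.88 in wild type, against gap medians of 0.691, 1.75, 0.563 and 0.927. This placed it at the 74.5 and 82.1 percentiles of gaps in the stop cassette lists and at 95.7 and 93.8 in the wild-type lists. At equal list length the percentiles were 78.7 and 79.5 against 95.7 and 95.9. The share of gaps with percentiles higher in both wild-type lists is not given here. As deposited, the summit counts of the desert overlapped between genotypes. Wild-type replicate 1 is the shortest list and was not cut, so its 95.7 had to repeat and adds no second observation.

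The desert held 21 regions, of which 8, or 38.1%, were in all lists, beside 32.0% of all merged regions. The strongest, chr1:122637570-122638528, lay 139 kb from the En1 start and was at 46.8 and 81.8 with the stop cassette and at 71.2 and 79.7 in wild type. It was followed by chr1:122860262-122860833 (362 kb), at 49.1 and 85.0 against 55.3 and 68.0, and chr1:122691728-122692279 (193 kb), at 58.0 and 71.1 against 31.7 and 74.4. The genotypes overlapped in each of the 3, and all lists still held each at equal length. A single region was specific to wild type, chr1:123074305-123075039 576 kb from the En1 start, at 4.54 and 28.9, and 0 were specific to the stop cassette. At equal length a further wild-type-specific region appeared 83.6 kb from the En1 start, at 4.54 and 55.0 of the reduced lists. The stop cassette summits there, at 3.38 and 28.8 as deposited, were no longer included. Genome-wide, 2.24% of regions were specific to wild type at equal length and 5.21% to the stop cassette.

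**Figure D4:**
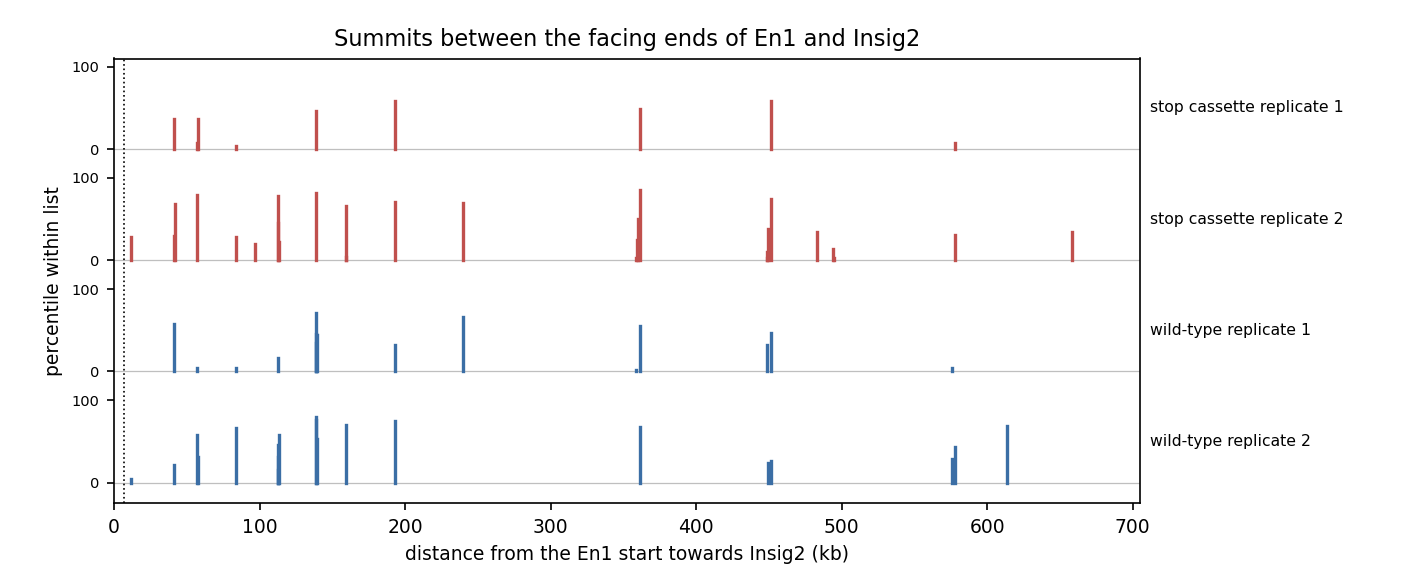
Summits between the facing ends of En1 and Insig2, by distance from the En1 start (horizontal axis, kb, dotted line at the end of En1) and percentile within the list (height), with 1 row per library. Lines recur in all rows near 139, 193 and 362 kb, and stop cassette replicate 1 has the fewest lines, with 10 summits.

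The motifs TAATTA (the core of homeodomain sites), CTTTGAT and CTTTGAA (sites of the Wnt effectors TCF and LEF) and GGCGCC (a palindrome bound by SMAD proteins) were searched on both strands in the 300 bases at the strongest summit of each region. Over all regions 8.09% held TAATTA, 4.22% CTTTGAT, 6.40% CTTTGAA and 9.10% GGCGCC. The homeodomain motif was found in 0 of 11 windows near En1, 1 of 12 near Wnt7a, 3 of 25 near Lmx1b and 2 of 21 in the desert. The Wnt7a window that held it, 1.75 kb inside the gene, also held CTTTGAA. In the same order CTTTGAT was present in 0, 1, 1 and 1 windows, CTTTGAA in 0, 1, 0 and 0, and GGCGCC in 2, 1, 1 and 1. Of the sequences shown above, the desert region begins with GGCGCC, and the other 4 hold none of the motifs.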

How the data were processed

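The authors deposited, per library, a list of 1 bp summits with a peak score, read here as −log10 of a q-value from the lowest values of 1.30 to 1.31, which match a q-value of 0.05. Per the submitters' processing notes, Bowtie2 2.2.6, Picard and build mm9 were used. Peak names record removal of duplicate and mitochondrial reads and a mapping quality of 30. The peak caller, any Tn5 shift and any control are not given in the sources used here. GENCODE M1 uses this build as NCBIM37; on 21 chromosomes 0 summits were past an end. Depth is unknown, so scores served only as percentiles within a list, with ties at their mean rank. They cannot be compared between libraries.

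Start windows were 1 kb, surroundings 100 kb and region extensions 250 bp, with regions merged at an overlap of 1 bp. Genotypes were compared by exact permutation of 4 libraries (6 assignments), and genes by exact sign-flips over libraries (Python 3.11.15, NumPy 2.4.6). Named regions were those at starts, the 3 strongest away from other starts and up to 5 genotype-specific ones per gene, and of each pathway list the 2 genes with the highest and lowest mean percentile. The genes and lists were chosen with earlier results of these data known. Sox1, of the neural markers, was not matched by symbol. CpG counts were added later. Region counting was checked on simulated lists. Alternatives were lists shortened to the length of the shortest, scores above the pooled median, other window sizes, omission of summits at other genes' starts, a replicate block and omission of each library.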

Additional observations from a re-analysis of the deposited data

How the results depend on the processing

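The exact permutation tests allow no p-value under 0.333 for genotypes and 0.125 for genes, so no result could pass 0.05 and keeping a direction is no evidence of a difference. Equal list length turned the genotype differences in summits within 100 kb to -1 for En1, -0.5 for Wnt7a and -1.5 for Lmx1b, and that of the desert to -8. It gave 1, 2 and 1 genotype-specific regions near En1, Wnt7a and Lmx1b, and 2 in the desert, from 0, 5, 6 and 1. The higher score threshold gave 1 for Wnt7a and 0 for Lmx1b, a Lmx1b start difference of 0, and turned Lmx1b minus Wnt7a to -0.75. A surrounding of 50 kb gave 2 specific regions for Wnt7a and turned Wnt7a minus En1 to -0.75, and 200 kb gave 10 specific regions for Lmx1b. Leaving out summits at other genes' starts turned Wnt7a minus En1 to -2. An extension of 100 bp left 0 specific regions in the desert, and a start window of 500 bp gave a Lmx1b start difference of 0.

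Fits that left out a library each gave summit differences of 0 to 9 for En1 (0 without stop cassette replicate 2), 5 to 9 for Wnt7a, 4 to 15 for Lmx1b and -7.5 to 9.5 for the desert. They gave start differences of 0 to 52.7 for En1, 1.71 to 54.5 for Wnt7a and -31.9 to 1.45 for Lmx1b. Omitting stop cassette replicate 2 made the desert difference -7.5, and omitting wild-type replicate 1 made it -1.5, while the value of 1.45 for Lmx1b was without wild-type replicate 2. Genotype-specific regions ranged from 0 to 3 for En1, 5 to 8 for Wnt7a, 8 to 10 for Lmx1b and 2 to 6 in the desert, where the remaining list stands for its genotype. The highest counts, 3, 8, 10 and 6, were without stop cassette replicate 1. The gene differences ranged from 2 to 4.33 for Wnt7a minus En1, from 10.3 to 12.7 for Lmx1b minus En1 and from 6.67 to 9.67 for Lmx1b minus Wnt7a. Of 92 differences in all alternatives, 78 kept their direction. The number of lists holding a named region, checked after the data were seen, was kept for 10 of 25 at equal length and 4 of 25 above the threshold. The cause of these changes was not tested.

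Libraries share replicate numbers by title only. Over 22367 genes, deviations of same-numbered libraries correlated at 0.253 for counts and 0.224 for start percentiles. With a replicate block the differences in summits stayed 4.5 for En1, 7 for Wnt7a, 9.5 for Lmx1b and 1 for the desert, and start differences 26.4, 28.1 and -15.2, with exact sign-flip permutation p-values of 0.5 or 1, where 0.5 is the smallest possible.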
